A study of Mus musculus with 32 samples.

Results

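The 10 genes described here encode RNA-binding proteins known as markers or regulators of neurons: the ELAV-like genes Elavl2, Elavl3 and Elavl4, the RBFOX genes Rbfox1 and Rbfox3, the NOVA genes Nova1 and Nova2, and the CELF genes Celf3, Celf4 and Celf5. They were chosen by name, with earlier results of these data known. All 10 are among the 51912 gene identifiers of the deposited table and passed the filter on low counts in both fits. The data are RNA-seq of nuclei taken from gut muscle with its myenteric plexus and sorted by fluorescence, from colon and small intestine (SI) of C57BL/6 mice kept specific pathogen-free at the University of Bern or at the Francis Crick Institute. All mice, those that gave the non-neuronal nuclei included, had received the viral vector AAV9-CaMKII-EGFPKASH by vein 5 weeks earlier. It drives a green fluorescent protein on the nuclear envelope from a CaMKII promoter, so that neuronal nuclei are those that took up the vector and used this promoter, and non-neuronal nuclei are those without fluorescence. Facility, segment and sort give 8 groups of 4 libraries, which are Bern colon neuronal, Bern colon non-neuronal, Bern SI neuronal, Bern SI non-neuronal, and the same 4 from the Crick. Age, sex and the number of animals behind a library are not given in the sources used here. Nothing states that libraries of a group came from different animals, so p-values measure the spread between these libraries, which may be in part technical.

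The ELAV-like proteins, also called Hu proteins, bind U-rich and AU-rich stretches of RNA, stabilise mRNA and act on splicing. Antibodies to HuC and HuD, the products of Elavl3 and Elavl4, are the standard stain for enteric nerve cell bodies. RBFOX and NOVA proteins bind short motifs in introns and turn the use of nearby exons up or down, and the CELF proteins act on splicing and translation through GU-rich sites. The product of Rbfox3 is NeuN, a stain for the nuclei of many mature neurons, and NOVA1 and NOVA2 were first found as antigens in a paraneoplastic disorder of motor control.

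For 9 of the 10 genes RefSeq gives promoter windows on GRCm38.p6, from 250 bases before to 50 after a transcript start, and the most upstream window of each gene was used. Celf4 is not in that table. Windows of 3 genes are shown because their levels frame the results below: Celf3 had the highest level in neuronal nuclei, Elavl3 had a fold change between neuronal and non-neuronal nuclei of like size at a lower level, and Nova1 was the 1 gene of the 10 whose difference did not pass the test. Capitals mark CAGCTG, an E-box that reads the same on both strands.
Celf3 (chr3:94478045-94478344, plus strand): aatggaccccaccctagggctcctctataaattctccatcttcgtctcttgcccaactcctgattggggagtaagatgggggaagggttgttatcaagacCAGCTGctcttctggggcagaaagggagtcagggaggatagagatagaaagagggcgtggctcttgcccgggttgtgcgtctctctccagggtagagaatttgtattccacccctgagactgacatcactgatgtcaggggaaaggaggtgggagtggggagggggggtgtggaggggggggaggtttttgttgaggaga
Elavl3 (chr9:22051974-22052273, minus strand): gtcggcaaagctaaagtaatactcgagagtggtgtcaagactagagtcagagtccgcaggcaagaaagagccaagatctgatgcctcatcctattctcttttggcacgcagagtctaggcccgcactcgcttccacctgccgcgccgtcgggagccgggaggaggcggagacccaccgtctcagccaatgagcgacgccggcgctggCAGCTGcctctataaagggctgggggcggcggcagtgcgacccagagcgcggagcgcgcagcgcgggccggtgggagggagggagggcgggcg
Nova1 (chr12:46818718-46819017, minus strand): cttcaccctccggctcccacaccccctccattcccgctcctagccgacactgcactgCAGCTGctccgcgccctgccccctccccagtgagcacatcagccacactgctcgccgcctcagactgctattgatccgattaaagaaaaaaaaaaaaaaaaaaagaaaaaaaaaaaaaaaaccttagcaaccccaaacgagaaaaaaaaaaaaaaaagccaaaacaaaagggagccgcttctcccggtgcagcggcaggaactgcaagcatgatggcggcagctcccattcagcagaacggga
CAGCTG was present in the windows of Celf3, Elavl3, Nova1 and Elavl2, 4 of 9, against 16.1% of the windows of all 27025 genes in the table. TATAAA was present in Celf3 and Elavl3, where it does not overlap the E-box, and in 14.2% of all windows. TCAGCACC and GGACAGC, cores of the left and right parts of the RE1 element bound by the repressor REST, and TGACGTCA, the full site for CREB, were searched on both strands and found in none of the 9 windows (1.60%, 6.58% and 1.85% of all windows). A match is a description of these letters and not of binding, and no match says only that the letters are not in this window.

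As annotated by GENCODE M21, most of the 10 genes are long, with a median span of 136 kb against 17.4 kb for the 21870 protein-coding genes of the table. Rbfox1 covers 1526 kb (chr16:5885355-7411526, plus strand) and Rbfox3 422 kb (chr11:118489762-118911597, minus strand), whereas Celf3 covers 13.9 kb (chr3:94478295-94492198, plus strand). The median length of merged exons was 6.78 kb for the 10 genes and 3.50 kb for all. Other annotated genes share exon sequence with 5 of them, most of all Nova2 (chr7:18925888-18965319, plus strand), where the long noncoding gene Gm26821 on the opposite strand covers 31.7% of the exon bases. Gm16105 lies antisense to 8.14% of the exons of Celf5 (chr10:81459227-81482709, minus strand). Whether the counting used the strand is not stated, so the levels of Nova2 and Celf5 are uncertain to that extent. Gm26821 itself averaged 9.68 CPM over neuronal libraries, against 1.68 CPM over the non-neuronal ones.

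Library totals ran from 2394481 to 8350833 counts. Each level is a CPM value, that is a count divided by its TMM-adjusted library total in megacounts. The labels of the sorts matched a list of 15 neuron markers that holds none of the 10 genes. This list too was drawn up with earlier results of these data known. All 15 were higher in neuronal nuclei, and their summed level was 2619 to 5124 CPM in neuronal libraries against 83.6 to 1789 CPM in non-neuronal ones. Non-neuronal libraries were thus not free of neuronal RNA, least of all Bern colon (776 to 1789 CPM). Markers of smooth muscle (10 of 10), endothelium (8 of 8), mesothelium (6 of 6) and the 7 tested markers of enteric glia were lower in neuronal nuclei, as were 7 of 8 markers of fibroblasts, 8 of 9 of macrophages, 7 of 9 of epithelium and 5 of 7 of lymphocytes. Of 4 markers of interstitial cells of Cajal, which pace the gut muscle, 1 was higher and 3 were lower over all libraries (median log2 fold change -1.63), but 2 were higher and none lower in Bern SI and in Crick SI (medians 1.19 and 2.10). Their summed level was 658.8 to 2318 CPM in SI neuronal against 236.5 to 1146 CPM in SI non-neuronal libraries. Of 13 mitochondrially encoded genes, a sign of RNA quality in nuclei, 12 were lower in neuronal nuclei (median -2.17). The part of these cell types and of RNA quality in the sort differences below was not tested. A set of 6 libraries stood apart from their groups. Bern colon non-neuronal 1 and 2 had the highest neuron sums of that group (1789 and 1509 CPM), and Bern SI non-neuronal 1 had 839.9 CPM against 83.6 to 87.9 CPM in the rest. Crick colon non-neuronal 3 had the highest macrophage sum of its group (809 CPM against 323 to 386 CPM), and Crick SI non-neuronal 2 and Crick SI neuronal 2 had 23.58% and 15.99% of counts from mitochondrial genes. Results that change without these 6 are given both ways. The Bern libraries among them were picked by their neuron sums, so leaving them out can by itself raise a sort difference. Crick SI non-neuronal 4, with the highest neuron sum of its group (247.5 CPM), was kept. In bulk nuclei, a lower level from fewer cells of a type and one from less RNA per cell cannot be told apart.

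Within neuronal nuclei the 10 genes spanned levels over a wide range of CPM per kb of exon, with Celf3 first and Nova1 last. Celf3 averaged 323 ± 210.4 CPM per kb (SD, n = 16), followed by Elavl4 at 82.5 ± 27.6, Celf4 at 51.97 ± 13.8 and Elavl3 at 28.1 ± 10.1 CPM per kb. Each of these 4 was above the next in all 16 libraries, except that Elavl3 was above Rbfox1 in 13 of 16. Rbfox1 (21.2 ± 6.54 CPM per kb) and Celf5 (20.4 ± 14.2 CPM per kb) could not be ordered, since each was the higher in 8 of 16 libraries. Rbfox3 averaged 6.67 ± 4.21 and Nova2 6.22 ± 3.87 CPM per kb, with Rbfox3 above in 10 of 16 libraries. Elavl2 (3.40 ± 1.42) and Nova1 (2.78 ± 0.990 CPM per kb) came last, with Elavl2 above in 12 of 16. The first 3 places were the same in all 4 neuronal groups. In CPM, Celf3 alone made up 50.3% ± 13.3 (SD, n = 16) of the summed level of the 10 genes, between 31.3% and 73.8% by library.

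**Figure D1:**
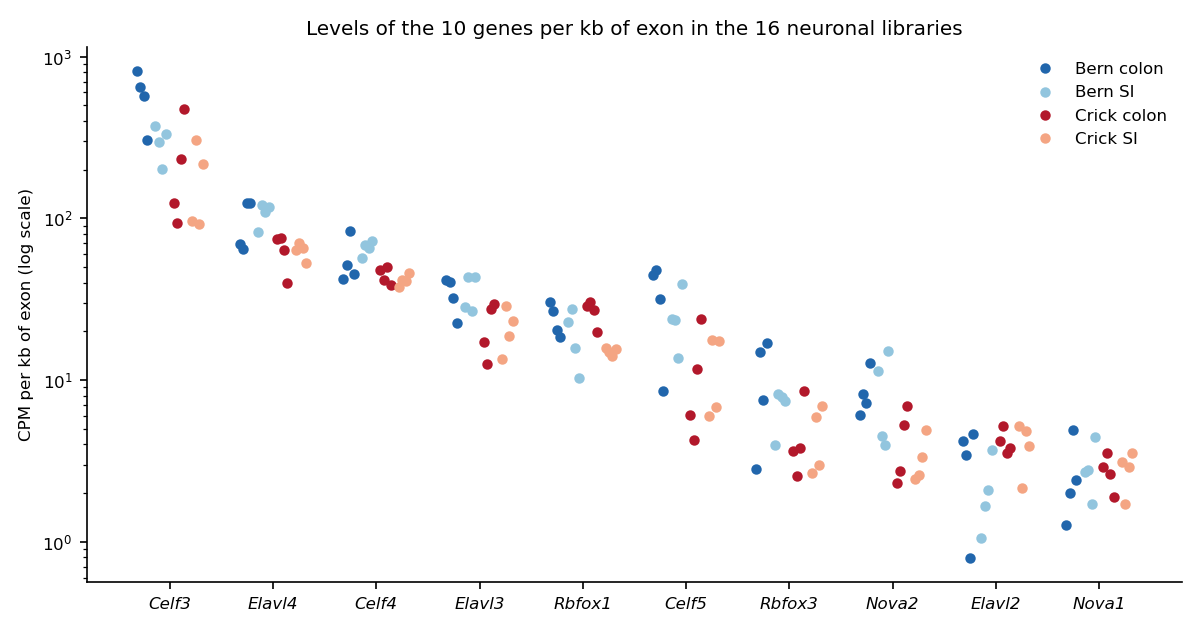
Level of each gene in CPM per kb of merged exon (log axis) in the 16 neuronal libraries, 1 point a library, coloured by facility and segment and ordered by the mean. Celf3 runs from 92.5 to 810.4 CPM per kb, Elavl4 and Celf4 follow, and Elavl2 and Nova1 lie lowest, between 0.793 and 5.19 CPM per kb.

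The main question put to the 10 genes was whether neuronal nuclei held more of their RNA than non-neuronal nuclei of the same gut. Of the 10 genes 9 were higher in neuronal nuclei, with log2 fold changes from 2.81 (Elavl2) to 4.46 (Celf3), and Nova1 did not pass the test. By the edgeR quasi-likelihood test with Benjamini-Hochberg adjustment over 21521 genes, 21.9% of all genes were called higher and 21.6% lower. The median log2 fold change was 3.63 over the 10 genes and -0.01 over all genes tested. All 9 calls held without any 1 of the 32 libraries. They also held without the 6 that stood apart, which is no independent check, since some of these were picked by their neuron sums. DESeq2 called 8 and gave Celf4 no p-value.

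**Figure D2:**
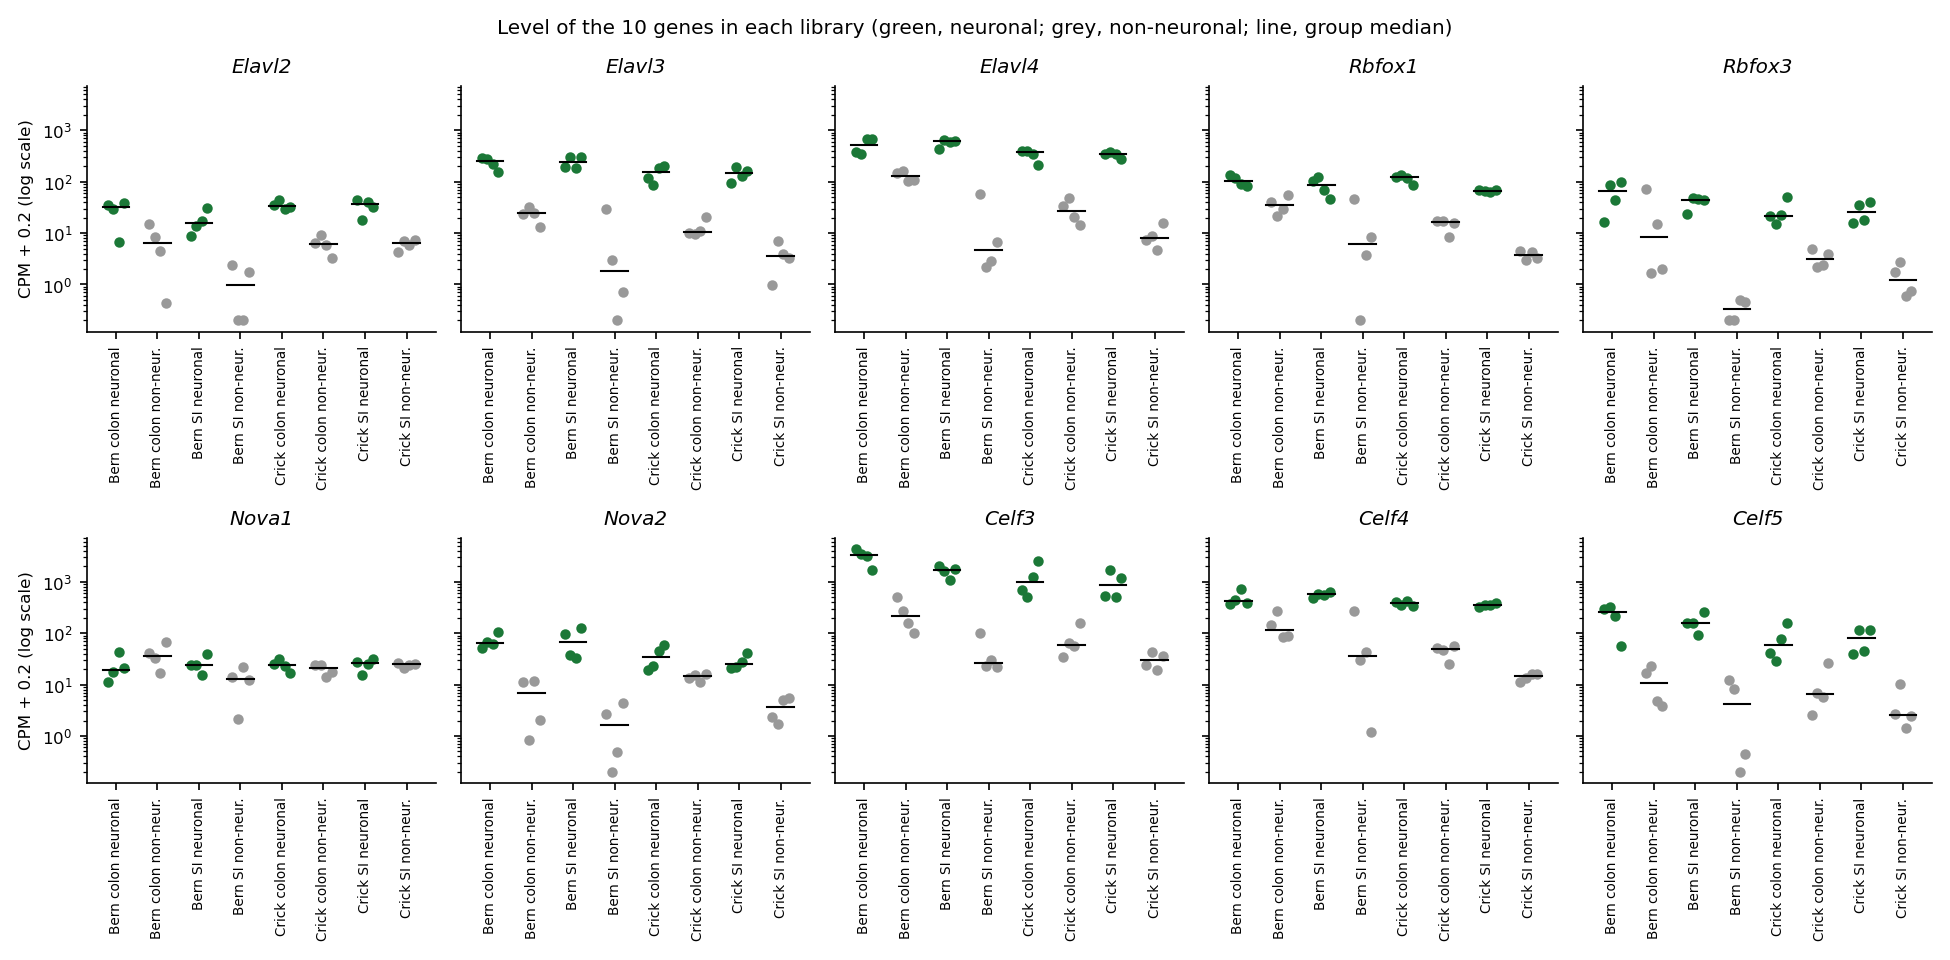
CPM plus 0.2 (log axis) of each gene in each of the 32 libraries, green for neuronal and grey for non-neuronal nuclei, with a line at the group median. In 6 genes the neuronal libraries lie above the non-neuronal ones in all 4 pairs of groups, and in Nova1 the groups overlap in every pair.

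Among the ELAV-like genes, Elavl4, which encodes HuD (chr4:110203722-110351909, minus strand), ran over 216 CPM (lowest), 392 CPM (median) and 674 CPM (highest) in the 16 neuronal libraries and 1.98 CPM (lowest), 18.1 CPM (median) and 163 CPM (highest) in the 16 non-neuronal ones. No neuronal library fell within the non-neuronal range. Its log2 fold change was 3.96 ± 0.31 (SE, adjusted p = 2.49e-13). Elavl3, which encodes HuC (chr9:22015005-22052023, minus strand), had 86.99 CPM (lowest), 192 CPM (median) and 298 CPM (highest) in neuronal libraries against 0 CPM (lowest), 9.73 CPM (median) and 31.6 CPM (highest) in non-neuronal ones. These ranges do not overlap either, and the log2 fold change was 4.30 ± 0.37 (adjusted p = 4.86e-12). Elavl2, which encodes HuB (chr4:91250763-91400785, minus strand), was the lowest of the 3, with 6.59 CPM (lowest), 31.2 CPM (median) and 43.2 CPM (highest) in neuronal against 0 CPM (lowest), 5.01 CPM (median) and 14.7 CPM (highest) in non-neuronal libraries. The lowest neuronal value, from Bern colon 3, lies inside the non-neuronal range, and the log2 fold change was 2.81 ± 0.40 (adjusted p = 3.64e-07).

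The 2 RBFOX genes were both higher in neuronal nuclei. Rbfox1, a splicing regulator also active in heart and skeletal muscle, had 45.04 CPM (lowest), 88.2 CPM (median) and 134 CPM (highest) in neuronal libraries against 0 CPM (lowest), 11.8 CPM (median) and 55.1 CPM (highest) in non-neuronal ones. Its groups were apart in 3 of the 4 pairs of facility and segment, and in Bern SI the lowest neuronal library (45.0 CPM) was just under non-neuronal library 1 (46.0 CPM). The log2 fold change was 2.82 ± 0.32 (adjusted p = 3.13e-09). Rbfox3, the gene of NeuN, had 14.8 CPM (lowest), 37.4 CPM (median) and 97.98 CPM (highest) in neuronal libraries against 0 CPM (lowest), 1.67 CPM (median) and 72.6 CPM (highest) in non-neuronal ones, a log2 fold change of 4.18 ± 0.46 (adjusted p = 1.39e-09). The highest non-neuronal value came from Bern colon library 1. No other non-neuronal library held more than 14.6 CPM.

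The 2 NOVA genes differed in their pattern. Nova2, the form known for acting on axon and vessel development, had 19.5 CPM (lowest), 42.8 CPM (median) and 126 CPM (highest) in neuronal libraries against 0 CPM (lowest), 4.48 CPM (median) and 15.7 CPM (highest) in non-neuronal ones, and the groups were apart in all 4 pairs. Its log2 fold change was 3.30 ± 0.38 (adjusted p = 2.50e-09). Nova1 (chr12:46694517-46818929, minus strand), a regulator of exon choice in the brainstem and spinal cord, had 11.1 CPM (lowest), 24.1 CPM (median) and 42.9 CPM (highest) in neuronal libraries and 1.98 CPM (lowest), 22.7 CPM (median) and 67.1 CPM (highest) in non-neuronal ones. The groups overlapped in all 4 pairs, and the log2 fold change was 0.15 ± 0.27 (adjusted p = 0.718).

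Nova1 by library makes the point in more detail. In colon it read 11.1, 17.5, 42.9 and 21 CPM in Bern neuronal against 40.2, 32.7, 16.7 and 67.1 CPM in Bern non-neuronal libraries, and 25.3, 30.9, 23.1 and 16.6 CPM in Crick neuronal against 23.5, 24.1, 14.2 and 17.4 CPM in Crick non-neuronal libraries. In SI it read 23.8, 24.4, 15.1 and 38.9 CPM in Bern neuronal against 13.7, 1.98, 21.8 and 12.01 CPM in Bern non-neuronal libraries, and 27.2, 14.97, 25.5 and 31.1 CPM in Crick neuronal against 26.1, 20.9, 24.1 and 25.03 CPM in Crick non-neuronal libraries. The single lowest and single highest values of all 32 were both non-neuronal, and Crick SI non-neuronal libraries lay within 20.9 to 26.1 CPM. Set against the neuron markers, Nova1 stood at 0.710% ± 0.299 of their summed CPM in SI neuronal libraries and at 14.5% ± 9.39 in SI non-neuronal ones (SD, n = 8 each), so its non-neuronal level did not follow that of the neuron markers. Gm33869, a transcript of unsettled status on the same strand, shares 3.54% of the exon bases of Nova1 and averaged 7.42 CPM in neuronal against 13.2 CPM in non-neuronal libraries, so that reads of one may be counted for the other.

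All 3 CELF genes were higher in neuronal nuclei. Celf3, a brain-enriched member of the family, had 506 CPM (lowest), 1652 CPM (median) and 4436 CPM (highest) in neuronal libraries against 18.7 CPM (lowest), 49.8 CPM (median) and 515 CPM (highest) in non-neuronal ones. Its log2 fold change was 4.46 ± 0.30 (adjusted p = 4.25e-15), and without the 6 libraries that stood apart it was 4.86, beside 5.19 for Elavl3 and 4.89 for Celf5. The ranges touched only between facilities, since the lowest Crick neuronal library (506 CPM) was just under the highest Bern non-neuronal one (515 CPM). Celf4, whose loss in mice leads to seizures, had 324 CPM (lowest), 402 CPM (median) and 721 CPM (highest) against 1.02 CPM (lowest), 44.6 CPM (median) and 272 CPM (highest), with no overlap and a log2 fold change of 3.04 ± 0.32 (adjusted p = 4.54e-10). Celf5 had 28.5 CPM (lowest), 117 CPM (median) and 320.5 CPM (highest) in neuronal against 0 CPM (lowest), 5.14 CPM (median) and 25.6 CPM (highest) in non-neuronal libraries, again with no overlap, and a log2 fold change of 4.14 ± 0.44 (adjusted p = 6.70e-10).

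Within each facility and segment the sort difference was seen for most of the 10 genes, and Bern colon stood lowest. There 6 of the 10 were higher in neuronal nuclei (background 10.3% of genes), with a median log2 fold change of 1.97. In Bern SI 9 of 10 were higher (background 17.2%, median 5.01), in Crick colon 8 (background 7.46%, median 3.05) and in Crick SI 9 (background 6.52%, median 4.38). In Bern colon Elavl2 (1.98 ± 0.77, adjusted p = 0.056), Rbfox1 (1.53 ± 0.61, adjusted p = 0.0637) and Rbfox3 (1.44 ± 0.77, adjusted p = 0.176) did not pass beside Nova1, and in Crick colon Nova2 did not (1.38 ± 0.69, adjusted p = 0.174). DESeq2 called 2 of these in Bern colon, Elavl2 (adjusted p = 0.0131) and Rbfox1 (adjusted p = 0.038). By edgeR, without Bern colon non-neuronal library 1 Rbfox3 was 3.36 (adjusted p = 0.00262) and Elavl2 2.64 (adjusted p = 0.0232). Elavl2 and Rbfox1 also passed without any 1 of Bern SI non-neuronal 1, 2 and 3, and Elavl2 without Bern colon neuronal 3. Over the fits without 1 library, 5 to 8 of the 10 genes were called in Bern colon. Celf4 passed narrowly in Bern colon (1.71 ± 0.61, adjusted p = 0.0351) and lost the call without any 1 of 9 libraries, with adjusted p up to 0.105 (without Bern colon neuronal 3), and so did Elavl2 in Crick SI (2.49 ± 0.78, adjusted p = 0.0306) without any 1 of 7, with adjusted p up to 0.094 (without Crick SI non-neuronal 1). Without the 6 libraries that stood apart, Elavl2 (3.53, adjusted p = 0.017) and Rbfox3 (2.87, adjusted p = 0.0208) passed in Bern colon as well. That fit left out Bern colon non-neuronal 1 and 2, picked by their neuron sums, so it is no independent check. The summed level of the neuron markers in Bern colon non-neuronal libraries, 776 to 1789 CPM, was the highest of any non-neuronal group, and its part in the smaller differences there was not tested.

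**Figure D3:**
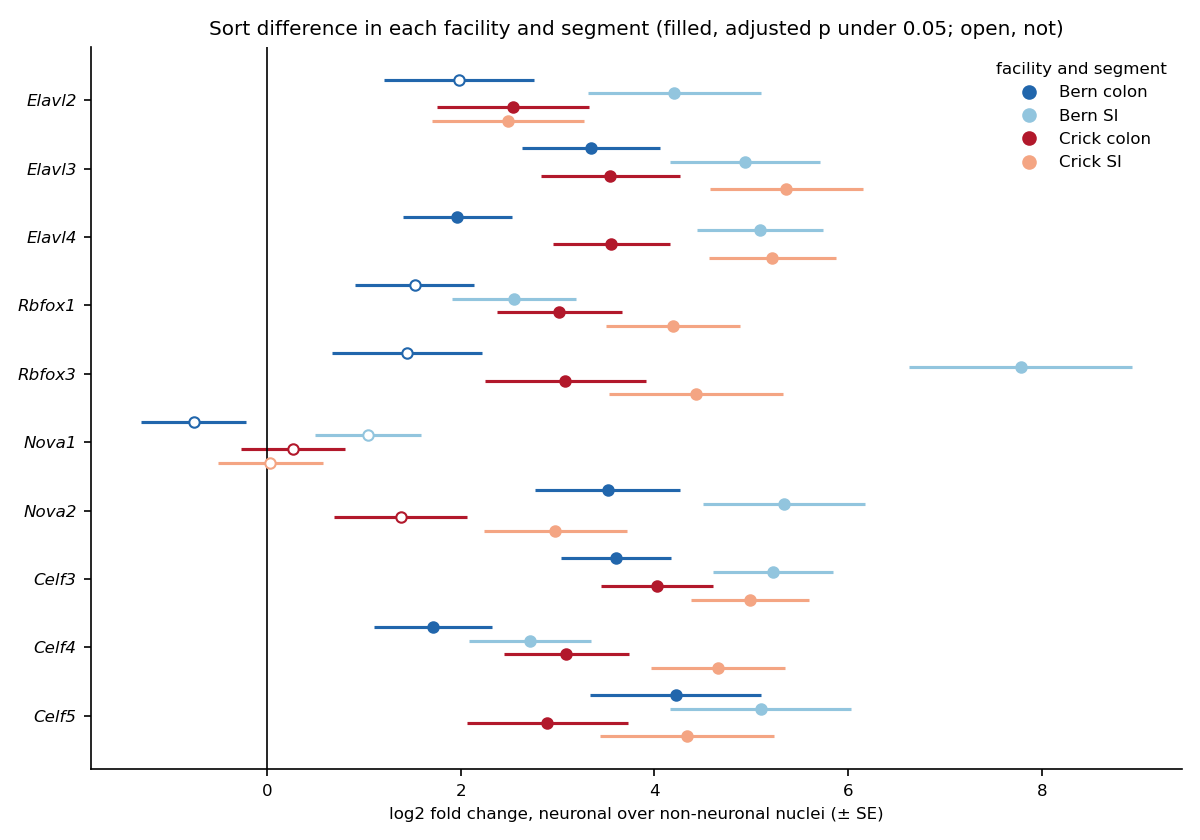
Log2 fold change of neuronal over non-neuronal nuclei (± SE) for each gene in Bern colon, Bern SI, Crick colon and Crick SI, from 1 fit to 32 libraries. Filled points passed an adjusted p of 0.05. Nova1 is open in all 4, the Bern colon points of Elavl2, Rbfox1 and Rbfox3 and the Crick colon point of Nova2 are also open, and Rbfox3 in Bern SI lies farthest right at 7.78.

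The test of segment by sort asked whether the neuronal against non-neuronal difference was larger in colon than in SI. Averaged over both facilities, it was smaller in colon for Elavl4 and Rbfox3. The other 8 genes had lower values in colon too, between -0.78 and -1.71, without passing (background 5.39% of genes called lower). The median was -1.29 over the 10 genes and -0.22 over all genes. Elavl4 read 376, 347, 674 and 666 CPM in Bern colon neuronal against 151, 163, 104 and 110.4 CPM in Bern colon non-neuronal libraries, and 443, 655, 592 and 631 CPM in Bern SI neuronal against 57.5, 1.98, 2.65 and 6.39 CPM in Bern SI non-neuronal libraries. At the Crick it read 403, 405, 343 and 216 CPM in colon neuronal against 33.9, 47.3, 20.4 and 13.97 CPM in colon non-neuronal libraries, and 343, 380.3, 354 and 283 CPM in SI neuronal against 7.06, 8.76, 4.46 and 15.9 CPM in SI non-neuronal libraries. Neuronal levels overlapped between the segments. In non-neuronal libraries every Bern colon value was above every Bern SI value, and the Crick ranges overlapped only through 1 library of each segment. The log2 difference, colon minus SI, was -2.39 ± 0.56 (adjusted p = 0.00703). At Bern the sort difference of Elavl4 was 1.96 ± 0.56 in colon and 5.09 ± 0.65 in SI. At the Crick it was 3.56 ± 0.60 in colon and 5.22 ± 0.65 in SI.

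Rbfox3 had 0 to 10 counts in each SI non-neuronal library and 7 to 213 in each colon non-neuronal one. It read 16.4, 86.5, 43.9 and 97.98 CPM in Bern colon neuronal against 72.6, 1.46, 14.6 and 1.82 CPM in Bern colon non-neuronal libraries, and 23, 48.02, 45.95 and 43 CPM in Bern SI neuronal against 0, 0, 0.294 and 0.256 CPM in Bern SI non-neuronal libraries. At the Crick it read 21.1, 14.8, 22.1 and 49.9 CPM in colon neuronal against 4.62, 2.02, 2.23 and 3.75 CPM in colon non-neuronal libraries, and 15.5, 34.6, 17.4 and 40.2 CPM in SI neuronal against 1.53, 2.58, 0.406 and 0.538 CPM in SI non-neuronal libraries. The groups were apart in all pairs but Bern colon, where non-neuronal library 1 lay among the neuronal ones. In Bern SI 582 counts in neuronal libraries stood against 2 counts in non-neuronal ones, a ratio of 251 with an exact 95% interval of 69.3 to 2080 that covers counting error only. The segment by sort difference was -3.84 ± 0.89 on the log2 scale (adjusted p = 0.00661). At Bern the sort difference was 1.44 ± 0.77 in colon and 7.78 ± 1.15 in SI. At the Crick it was 3.08 ± 0.83 in colon and 4.43 ± 0.90 in SI. The gap was thus larger at Bern, where the SI value rests on 2 non-neuronal counts. With replicate numbers taken as a block, Rbfox3 was not called (-3.19 ± 1.04, adjusted p = 0.0801 by edgeR).

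Markers of several cell types were also called lower in that test. Of the 15 neuron markers, 7 were called lower and none higher, with a median of -2.09, and their summed CPM in non-neuronal libraries was 197 to 1789 in colon and 83.6 to 839.9 in SI. At Bern 1 SI library, number 1, was above the 2 lowest colon libraries, and at the Crick 1 SI library, number 4 (247 CPM), was above colon library 3 (197 CPM). As a share of the summed neuron markers, Elavl4 stood at 11.2% ± 2.81 in colon neuronal and 12.1% ± 1.89 in SI neuronal libraries, and at 9.88% ± 3.12 in colon non-neuronal and 5.44% ± 2.02 in SI non-neuronal libraries (SD, n = 8 each). Rbfox3 stood at 1.08% ± 0.61 in colon neuronal and 0.89% ± 0.33 in SI neuronal libraries. In non-neuronal libraries it was 1.24% ± 1.27 in colon and 0.59% ± 0.75 in SI. By facility, these non-neuronal shares of Rbfox3 were 1.54% and 0.16% at Bern and 0.94% and 1.02% at the Crick. For both genes the shares overlapped between colon and SI non-neuronal libraries. Of the other lists, 3 of 4 markers of interstitial cells of Cajal (median -6.14), 5 of 8 of endothelium (-4.01), 2 of 9 of epithelium (-3.19), 2 of 9 of macrophages (-2.07), 1 of 7 of lymphocytes (-0.36) and 4 of 13 mitochondrially encoded genes (-1.66) were called lower. None of the markers of enteric glia, smooth muscle, fibroblasts or mesothelium was called. The part of the neuron content of the non-neuronal gate, of these other cells and of RNA quality in the calls of Elavl4 and Rbfox3 was not tested. The outcome for 4 further genes depended on the libraries or the setting. Without Bern SI non-neuronal library 1, Elavl3 (-3.20, adjusted p = 7.41e-05), Rbfox1 (-2.01, 0.00855), Celf3 (-1.70, 0.0225) and Celf4 (-2.20, 0.00253) were also called, which makes 6 of 10. Over the fits without 1 library, 1116 to 1864 of all genes were called in either direction, against 1395 with all libraries kept. Without the 6 libraries that stood apart, Elavl3 (-3.26, adjusted p = 2.92e-04), Rbfox1 (-2.20, 0.0142) and Celf4 (-1.94, 0.0183) were called, and Celf3 was not (-1.21, 0.147). That fit is no independent check, since some of the 6 were picked by their neuron sums. With all libraries kept, Elavl3, Celf3 and Celf4 were called with no filter on low counts, and Elavl3 and Celf3 with a replicate block. The sort difference itself was not shown to differ between facilities for any of the 10 genes (background 0.204%). Of the 10, 3 had an unadjusted p under 0.05 in edgeR, as did 3002 of all 21521 genes. Nova2 had 2.25 ± 0.70 (adjusted p = 0.124, and 0.026 by DESeq2), Celf4 -1.66 ± 0.60 and Rbfox1 -1.57 ± 0.61 for Bern minus Crick.

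Other RNA-binding proteins were set beside the 10 genes, with counts from the same fit. In it 21.9% of all genes were called higher and 21.6% lower. The 5 other tested members of the 4 families, which are mostly known from many tissues, were split. Celf6 had 4.82 ± 0.40 (adjusted p = 1.04e-12), and its levels were 44.96 ± 20.9 CPM over neuronal libraries, against 2.36 ± 3.22 CPM over the non-neuronal ones (SD, n = 16 each). Rbfox2 rose slightly (0.47 ± 0.18, adjusted p = 0.0303), while Celf2 (-1.23 ± 0.18, adjusted p = 6.10e-07) and Celf1 (-0.48 ± 0.18, adjusted p = 0.03) fell. Elavl1, which encodes the ubiquitous HuR, had -0.17 ± 0.19 (adjusted p = 0.507).

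Of 10 other splicing regulators known from neurons, 6 rose and 3 fell (median log2 fold change 1.37). The largest were Srrm3 (4.26 ± 0.43, adjusted p = 1.76e-10), which with its relative Srrm4 drives microexons into neuronal mRNA, Msi1 (4.01 ± 0.43, adjusted p = 7.79e-10), and Rbm24, a regulator best known from muscle (-3.46 ± 0.44, adjusted p = 3.40e-08). Of 10 splicing regulators of other tissues 1 rose and 7 fell (median -3.25), led by the epithelial regulator Esrp1 (-6.31 ± 0.87, adjusted p = 2.13e-07), Rbm38 (-5.86 ± 0.46) and the smooth muscle gene Rbpms2 (-4.45 ± 0.41). Genes of mRNA transport, stability and translation gave 5 higher and 4 lower of 18 (median 0.00), near the shares of all genes (21.9% and 21.6%). Zfp36l1 (-4.54 ± 0.31) and Zfp36 (-3.31 ± 0.37), which speed the decay of AU-rich mRNA, were lower and Cpeb1 (2.60 ± 0.27) was higher. Of 25 general SR and hnRNP factors, found in most cells, 2 rose and 9 fell (median -0.31), with Srsf9 (1.81 ± 0.39), Srsf10 (-0.79 ± 0.21) and Tra2b (-0.64 ± 0.17) at the ends.

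Colon and SI neuronal nuclei were compared over both facilities in a fit to the 16 neuronal libraries and 17419 genes. None of the 10 genes was called by edgeR or DESeq2 (background 5.51% of genes). Of the 10, 1 had an unadjusted p under 0.05 by each tool (3249 of all 17419 genes by edgeR). In edgeR that gene was Rbfox1, which had 80.9 (lowest), 118 (median) and 134 CPM (highest) in colon against 45.04 (lowest), 68.8 (median) and 121 CPM (highest) in SI. Its groups overlapped, and the log2 fold change was 0.52 ± 0.22 (adjusted p = 0.187). Celf3 read 4436, 3553, 3124 and 1676 CPM in Bern colon against 2023, 1628, 1102 and 1805 CPM in Bern SI, and 684, 509.9, 1270 and 2607 CPM in Crick colon against 524, 1676, 506 and 1179 CPM in Crick SI. Both pairs overlapped, and the log2 fold change was 0.61 ± 0.30 (adjusted p = 0.282). It passed with a trend on transcript GC in the offset (0.77, adjusted p = 0.0278) and with no filter on low counts (0.64, adjusted p = 0.00493). The other 8 genes had values between -0.14 and 0.29. In the same fit Khdrbs2 was the 1 other splicing regulator of neurons called (0.68 ± 0.19, adjusted p = 0.0327).

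In CPM, neuronal nuclei from Bern had higher levels of 4 of the 10 genes than those from the Crick: Celf5, Nova2, Celf3 and Elavl4 (background 4.96% of genes called higher). The median log2 fold change was 0.68 over the 10 genes and 0.01 over all genes. Celf3 had 1102 (lowest), 1914 (median) and 4436 CPM (highest) in the 8 Bern against 506 (lowest), 932 (median) and 2607 CPM (highest) in the 8 Crick libraries, a log2 fold change of 1.03 ± 0.31 (adjusted p = 0.0399). Celf5 had 57.3 (lowest), 185 (median) and 320.5 CPM (highest) in Bern against 28.5 (lowest), 61.8 (median) and 158 CPM (highest) in Crick libraries (1.29 ± 0.37, adjusted p = 0.0335). Nova2 had 33.2 (lowest), 64.4 (median) and 126 CPM (highest) in Bern against 19.5 (lowest), 25.4 (median) and 57.9 CPM (highest) in Crick libraries (1.18 ± 0.32, adjusted p = 0.0249). These ranges all overlapped between the facilities. Elavl4 had 347 (lowest), 611 (median) and 674 CPM (highest) in Bern against 216 (lowest), 349 (median) and 405 CPM (highest) in Crick libraries (0.67 ± 0.19, adjusted p = 0.034), and in SI every Bern library was above every Crick library.

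The remaining 6 genes did not pass. Elavl3 had 0.69 ± 0.22 (adjusted p = 0.0583), Celf4 0.48 ± 0.17 (adjusted p = 0.0746) and Rbfox3 0.86 ± 0.36 (adjusted p = 0.143). Without the libraries that stood apart, of which Crick SI 2 was the 1 neuronal library, Elavl3 passed (0.80, adjusted p = 0.0314). Rbfox1 and Nova1 stood near 0, at 0.08 ± 0.22 and -0.01 ± 0.33. Elavl2 had the lowest value, -0.64 ± 0.35 (adjusted p = 0.285), which was not shown to differ from 0. With a trend on transcript GC in the offset Elavl2 had -0.16 ± 0.35 (adjusted p = 0.823). The 4 calls lay close to the threshold. Leaving out single libraries gave 0 calls (without Crick SI 1 or 3) to 5 calls (without Crick SI 2), and 2 or fewer without any 1 of Bern colon 2 or 3, Bern SI 1, 2 or 4, Crick colon 1, 2 or 3, and Crick SI 1, 3 or 4. Over these fits the log2 fold changes stayed positive, with adjusted p up to 0.0925 for Celf3, 0.0788 for Celf5, 0.0681 for Elavl4 and 0.062 for Nova2, and a fit to all 32 libraries called none of the 10. DESeq2 called 6, adding Elavl3 and Celf4, and called 2325 of all genes in either direction, against 1344 by edgeR.

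Facility is bound up with everything done apart at the 2 sites and cannot be told apart from it. The summed neuron markers were 3603 to 5124 CPM in Bern and 2619 to 3298 CPM in Crick neuronal libraries, without overlap, and 5 of the 15 were called higher in Bern (median 0.40). As a share of that sum, Elavl4 stood at 11.5% ± 2.57 in Bern and 11.7% ± 2.30 in Crick libraries, Nova2 at 1.53% ± 0.717 and 1.09% ± 0.457, Celf3 at 53.5% ± 32.9 and 38.2% ± 23.9, and Celf5 at 4.27% ± 2.45 and 2.68% ± 1.57 (SD, n = 8 each). For all 4 genes the ranges of these shares overlapped between the facilities, which is a description and no test. How far the neuron content accounts for the calls was not tested. None of the 10 genes was called for a difference of the segment effect between facilities, by edgeR (background 0.00574% of genes) or by DESeq2. None of them had an unadjusted p under 0.05 in edgeR, against 1134 of all 17419 genes.

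The facility values also lined up in part with base composition. Spearman's rho of log2 fold change with transcript GC was 0.85 over the 10 genes, and 0.64 with the GC trend described below. These values are a description and carry no test. The 5 genes with the GC-richest transcripts, Rbfox3 (58.6% GC), Nova2 (56.3%), Celf3 (56.2%), Celf5 (55.2%) and Elavl3 (54.1%), had log2 fold changes from 0.69 to 1.29, and the other 5, from Celf4 (49.3%) to Elavl2 (38.5%), from -0.64 to 0.67. The median transcript of 21780 protein-coding genes has 48.7% GC. The mean GC of protein-coding counts was 47.9% to 49.8% in Bern and 46.2% to 48.9% in Crick neuronal libraries. With a smooth trend of each library on transcript GC in the offset, a setting chosen after seeing the data, Celf3 (0.99), Celf5 (1.26) and Nova2 (1.07) kept values near those above, and Elavl4 had 1.06. Elavl3 (0.66, adjusted p = 0.0123) and Celf4 (0.70, adjusted p = 0.00489) were then called too, 6 of 10. The number of all genes called higher in Bern also rose with that setting, as given in the section on processing. With that setting the median log2 fold change of all genes was 0.21, against 0.01 without it, and the median of the 10 genes 0.72, against 0.68 without it, so that the 10 genes stood closer to all genes with the trend than without.

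**Figure D4:**
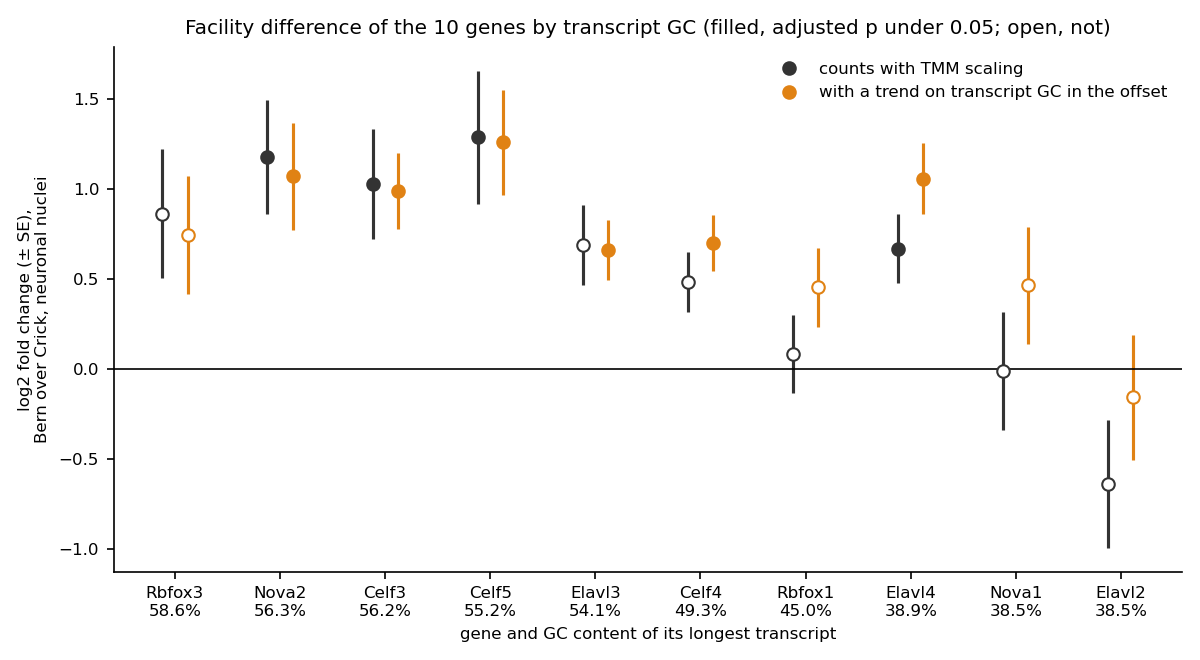
Log2 fold change of Bern over Crick neuronal nuclei (± SE) for the 10 genes in order of transcript GC, black from counts with TMM scaling and orange with a trend on transcript GC in the offset. Filled points passed an adjusted p of 0.05, 4 in black and 6 in orange.

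Within groups of neuronal libraries 3 of the 10 genes moved together. Log2(CPM + 1) was centred on the mean of each of the 4 groups, and all 45 pairs of genes were compared over 16 libraries with an exact permutation test within groups. After Benjamini-Hochberg adjustment over the 45 pairs, the pairs among Elavl3, Celf3 and Celf5 passed, and no other pair did. Of all 59694201 pairs of the 10927 protein-coding genes with a mean of at least 5 CPM in neuronal libraries, 0.0191% had an r at least as high as Celf3 with Celf5, 0.0594% as Elavl3 with Celf5 and 0.197% as Elavl3 with Celf3. Pearson's r was 0.93 for Celf3 with Celf5 (exact permutation p = 1.30e-04, adjusted 0.00292), with Spearman's rho 0.86 (p = 0.00117, exact permutation). It was 0.90 for Elavl3 with Celf5 (exact permutation p = 4.22e-05, adjusted 0.0019, rho 0.84 with p = 5.58e-04). For Elavl3 with Celf3 it was 0.86 (exact permutation p = 6.99e-04, adjusted 0.0105, rho 0.81 with p = 0.00237). Within Bern the 3 values of r were 0.92, 0.87 and 0.74 and within Crick 0.99, 0.93 and 0.92 (n = 8 each), and without the 2 libraries farthest from the median on the first gene they were 0.90, 0.88 and 0.81. Elavl4 went the other way, with r = -0.62 against Celf3 (exact permutation p = 0.0188, adjusted 0.211), which did not pass.

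The same 3 genes followed the GC content of the library. Over the 10 genes, the group-centred level of Celf3 had r = 0.97 with the group-centred GC of the library (exact permutation p = 2.71e-05, adjusted over 10 relations 2.71e-04), with rho 0.97 (p = 3.62e-05, exact permutation). Celf5 had r = 0.92 (exact permutation p = 2.92e-04, adjusted 0.00146, rho 0.83 with p = 0.0018) and Elavl3 r = 0.85 (exact permutation p = 0.00109, adjusted 0.00364, rho 0.83 with p = 0.00166). Elavl4, with one of the AT-richest transcripts, had r = -0.67 (exact permutation p = 0.01, adjusted 0.0251), and its rho of -0.59 did not pass (adjusted p = 0.0976, exact permutation). The 4 values of r were 0.98, 0.85, 0.67 and -0.64 within Bern and 0.97, 0.99, 0.94 and -0.76 within Crick (n = 8 each), and 0.96, 0.89, 0.80 and -0.52 without the 2 libraries farthest from the median of library GC. Among the other GC-rich genes, Rbfox3 had r = -0.74 within Bern and 0.95 within Crick, 0.20 over both. Nova2 (56.3% GC) had r = -0.065 within Bern and 0.79 within Crick, 0.40 over both (adjusted p = 0.249, exact permutation). Elavl2 and Nova1, with transcripts slightly AT-richer than that of Elavl4, had r = -0.375 and -0.32 and did not pass (adjusted p = 0.249 and 0.337, exact permutation). Rbfox1 and Celf4 had r = 0.01 each. Of the 10927 protein-coding genes, 3 (0.0274%) had an r with library GC at least as high as Celf3, itself included, 77 (0.705%) as Celf5 and 302 (2.76%) as Elavl3, and 600 (5.49%) had one as low as Elavl4. Among the 2680 genes with transcripts at least as GC-rich as that of Elavl3, the shares were 0.112%, 2.31% and 9.1% for Celf3, Celf5 and Elavl3. What sets library GC was not tested.

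**Figure D5:**
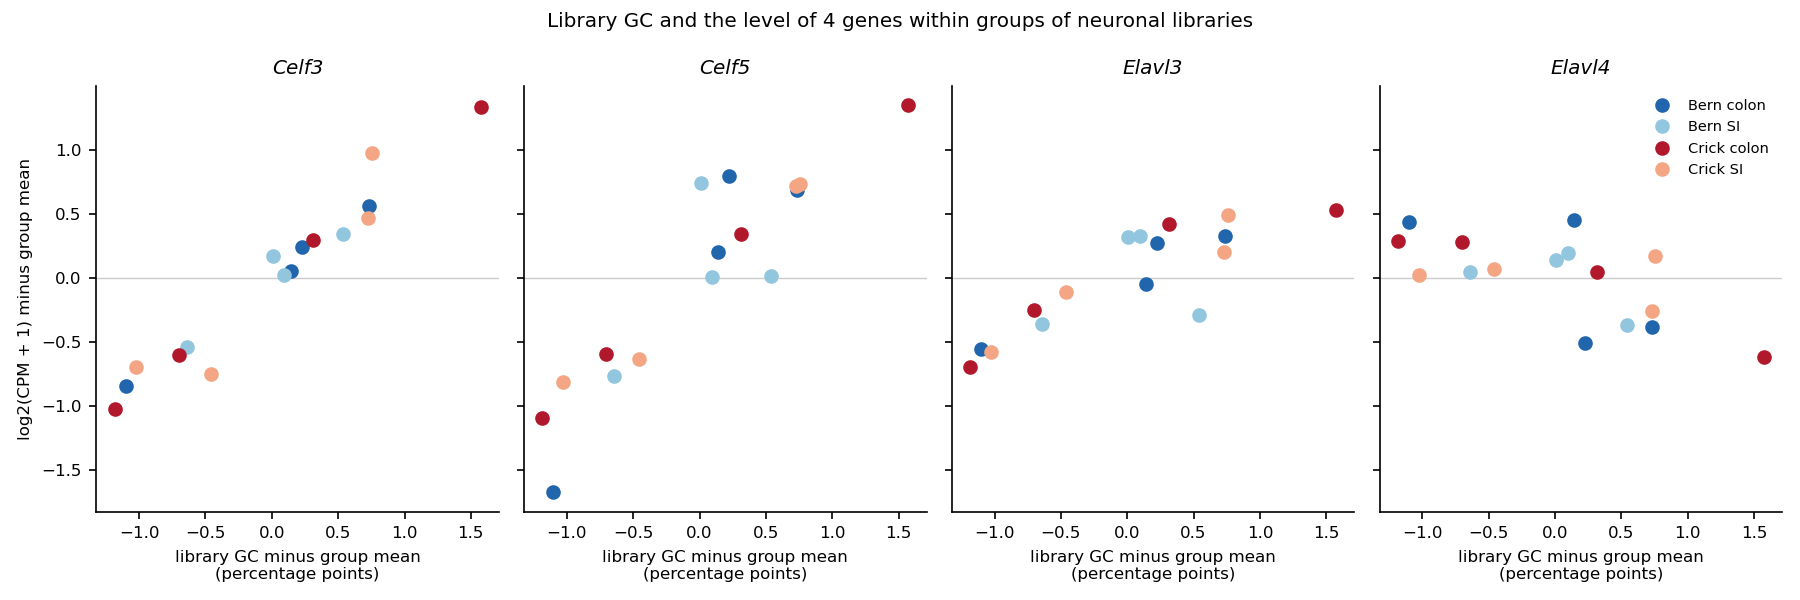
Log2(CPM + 1) of Celf3, Celf5, Elavl3 and Elavl4 minus the group mean against the mean GC of protein-coding counts minus the group mean (percentage points), 1 point for each of 16 neuronal libraries coloured by facility and segment. Celf3, Celf5 and Elavl3 slope up (r = 0.97, 0.92 and 0.85) and Elavl4 slopes down (r = -0.67).

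Genes with the most similar pattern over all 32 libraries were sought among 10927 protein-coding genes with a mean of at least 5 CPM in neuronal libraries, by Pearson's r of log2(CPM + 1). The 32 points share the split by sort, so these values are a description and carry no test. The closest to Elavl4 was Chrna3, a subunit of the ganglionic nicotinic acetylcholine receptor (r = 0.99), followed by Phactr3 and Mapk10 (0.98 each). Celf3 was most like Bin1 (0.98), the axonal kinesin gene Kif1a (0.98) and Mast1 (0.97). Elavl3 was most like Pcbp3 (0.98), the neuronal kinesin gene Kif5a (0.97) and the NMDA receptor subunit gene Grin1 (0.97). Celf4 came with Ppm1h, the neuregulin gene Nrg3 and the calcium pump gene Atp2b2 (0.96 each). Celf5 came with Cbarp (0.97), Celf3 and the axonal spectrin gene Sptbn4 (0.95 each), the 1 case of another of the 10 genes among the 3 closest. Rbfox1 was most like Rtn1 and Snhg11 (0.95 each) and Dpp6 (0.94). Rbfox3 was most like the potassium channel gene Kcnj3, Car10 and the ATP receptor gene P2rx2 (0.93 each). Nova2 had Fbxo41, Uchl1 (0.92 each) and Pcgf1 (0.91), and Elavl2 had the growth cone gene Gap43 (0.91), Adgb and Fam19a1 (0.90 each). Nova1 had the weakest matches, Qrsl1 (0.82), Rnf41 (0.75) and Mief1 (0.73).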

How the data were processed

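The authors deposited 1 table of expected counts (estimated counts from RSEM, per the file headers) for 51912 Ensembl gene identifiers in 32 libraries of nuclear RNA, read as 75-base single ends. The submitters' processing notes name GRCm38 as the build and STAR 2.5.2, RSEM 1.3.0 and DESeq2 1.10.1 as tools; the annotation release and the use of strand are not given in the sources used here. Values in decimals were rounded to whole counts. Symbols, coordinates and exon lengths were joined from GENCODE M21, which matched 51719 identifiers. GC content is that of the longest transcript of a gene.

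Models of group means were fitted in R 4.3.3 with edgeR 4.0.16, after filterByExpr and with TMM scaling, by the quasi-likelihood test; p-values were adjusted by Benjamini-Hochberg over all genes tested, with a threshold of 0.05. All 32 libraries entered the comparisons across sorts (21521 genes) and the 16 neuronal libraries the others (17419 genes). SE is |log2 fold change| over the root of F. DESeq2 1.42.0 was an alternative, beside RLE size factors, no filter, each library left out, a replicate block, the 6 libraries that stood apart left out, and 1 fit to all libraries. A trend of each library on transcript GC in the offset (lowess, span 0.3) was chosen after seeing the data. The fits were tested on simulated data. Totals of 2394481 to 8350833 counts set the precision, and an interval on counts holds counting error alone, as there are no molecular identifiers.

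The 10 genes and all lists were chosen with earlier results of these data known. All 10 are named in every comparison, all 5 family paralogues, and of each other list of RNA-binding proteins the 3 called genes with the largest fold change between the sorts; others named (Khdrbs2, called between segments, and Srrm4, as a relative of Srrm3) were chosen after their values were seen. Similar genes are the 3 with the highest r. The shares of all genes and gene pairs that reach a member's r were added after seeing the data.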

Additional observations from a re-analysis of the deposited data

Results flagged for a closer look

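Among the 80 sets of 4 libraries (10 genes in 8 groups), 6 held a library far from its group by Dixon's test at the 95% level, where chance alone flags about 1 in 20 sets. Bern SI non-neuronal library 1 was the high one in 4 of them. It had 29.1 CPM of Elavl3 against 0 to 2.77 CPM in the other 3, 57.5 CPM of Elavl4 against 1.98 to 6.39 CPM, 100.6 CPM of Celf3 against 21.7 to 29.8 CPM, and 272 CPM of Celf4 against 1.02 to 42.4 CPM. The same library held 839.9 CPM of the 15 neuron markers, against 83.6 to 87.9 CPM in the others. Crick colon non-neuronal library 4 had 20.4 CPM of Elavl3 against 9.57 to 10.9 CPM, and Crick SI non-neuronal library 2 had 10.0 CPM of Celf5 against 1.22 to 2.48 CPM. All 6 were non-neuronal libraries.

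The neuronal against non-neuronal difference differed between the segments, colon minus SI, for Elavl4 (-2.39 ± 0.56, adjusted p = 0.00703 by edgeR) and Rbfox3 (-3.84 ± 0.89, adjusted p = 0.00661), both in the interaction test over 32 libraries. For both genes the gap between segments was larger at Bern than at the Crick. With replicate numbers taken as a block, Rbfox3 was not called (adjusted p = 0.0801 by edgeR).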

How the results depend on the processing

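Neuronal against non-neuronal, 9 of the 10 genes were called under every edgeR alternative and without any 1 library, and 8 by DESeq2, which gave Celf4 no p. Over the 10 genes in all comparisons, 577 of the values under other alternatives kept direction and side of the threshold, as did 2592 of those without 1 library, 23 and 20 gained a call, and 7 and 56 lost one. Calls across sorts: segment by sort gave 1395 genes, and 2215 by DESeq2, with 2 of the 10, against 5 with no filter on low counts, 5 without the libraries that stood apart, and 2 to 6 without 1 library. Facility by sort gave 44 genes, 628 by DESeq2, 473 with no filter, 130 with the GC trend, 143 without the libraries that stood apart and 3 to 246 without 1 library, with 0 of the 10, 1 by DESeq2, 1 with no filter and 0 to 1 without 1 library (Celf4, without Bern SI non-neuronal 4). Colon against SI gave 960 genes, 1599 by DESeq2 and 1652 with no filter, with 0 of the 10, 1 with no filter and 1 with the GC trend (Celf3). Bern against Crick gave 1344 genes, 2325 by DESeq2, 2155 with no filter and 799 to 1818 without 1 library, with 4 of the 10, 0 in 1 fit to all 32 libraries and 0 to 5 without 1 library. Segment by facility gave 1 gene, 35 by DESeq2, 93 with no filter and 0 to 3 without 1 library. The GC trend moved the split of higher and lower calls to 2971 and 4358 in Bern SI (3709 and 2779 without it), 550 and 870 for segment by sort (235 and 1160), 50 and 80 for facility by sort (33 and 11) and 1689 and 300 for Bern against Crick (864 and 480). It put the median log2 value of all genes at -0.38 in Bern SI (0.04 without it), 0.09 for segment by sort (-0.22) and -0.24 for facility by sort (0.04); RLE size factors put it at -0.11 for the sort (-0.01 with TMM) and -0.18 in Crick colon (-0.06). Elavl4 and Rbfox3 stayed lowest of the 10 genes in segment by sort, at -2.29 and -3.41 with the trend, before any subtraction of that median.

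Values that changed sign were all uncalled in both settings. For Nova1 in Crick SI they were -0.026 with DESeq2, -0.026 with RLE, -0.007477 with the replicate block and -0.092 to 0.23 without 1 library. For facility by sort they were 0.48 with the block, 1.20 without the libraries that stood apart and -0.67 to 1.18 without 1 library for Elavl3; 0.45 without those that stood apart and -1.18 to 0.22 without 1 library for Elavl4; 0.11 with the block, 0.015 with the GC trend and -0.35 to 0.20 without 1 library for Nova1; 0.22 with the block, 0.96 without those that stood apart and -0.39 to 0.31 without 1 library for Celf3. For colon against SI, Elavl3 had 0.083 with the trend, 0.070 without those that stood apart and -0.14 to 0.070 without 1 library, Nova1 -0.38 to 0.023, Nova2 -0.030 to 0.35 and Celf5 -0.20 to 0.29. For Bern against Crick, Nova1 had 0.47 with the trend and -0.26 to 0.092 without 1 library, and Rbfox1 -0.033 to 0.20. For segment by facility, Elavl4 had 0.56 and Nova1 0.47 with the trend, Nova1 0.064 without those that stood apart and -0.61 to 0.19 without 1 library, Elavl3 -0.28 to 0.10 and Nova2 -0.67 to 0.034. The cause of these changes was not tested.

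Replicate numbers were not taken as pairs, since no label gives them a meaning and not every correlation between same-numbered libraries was over 0.1. Across sorts their deviations correlated at -0.00 to 0.04 in Bern and 0.07 to 0.49 in Crick libraries, and 13 of 16 correlated best with their own number, a hint from the data and not the design that numbers may be shared across sorts. The values were -0.32 to 0.25 across segments (3 of 8) and -0.14 to 0.14 across facilities (1 of 8). The replicate block gave 11 genes for facility by sort, 3 of the 10 for segment by sort (Elavl4, Elavl3 and Celf3, with Rbfox3 at adjusted p = 0.0801 by edgeR), 3 for Bern against Crick (Elavl4 at 0.0707), and in Crick SI 8 (Elavl2 at 0.0621).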
